A study of Mus musculus with 47 samples.

Results

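The 9 genes described are muscle ubiquitin ligases and sarcomere assembly factors, chosen by gene symbol out of 45706 genes with counts in C2C12 cultures. Ubiquitin ligases attach ubiquitin to chosen proteins, most of which the proteasome then degrades, and in a muscle cell this turnover shapes the sarcomere, the contractile unit of myosin and actin filaments. Many ligases are built on a cullin scaffold with an adaptor that picks the substrate, while RING proteins bind the ubiquitin-conjugating enzyme themselves. Sarcomere assembly also needs chaperones that fold myosin and proteins that stabilise thin filament components.

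By role, the genes form 4 sets. Trim54 (ENSMUSG00000062077, chr5:31116712-31137630), Trim55 (ENSMUSG00000060913, chr3:19644474-19692421) and Trim63 (ENSMUSG00000028834, chr4:134315120-134329629) encode the MuRF RING ligases of the M-band and Z-disc, and Trim63 (MuRF1) is a classic marker of muscle atrophy. Fbxo32 (ENSMUSG00000022358, chr15:58175879-58214932) encodes atrogin-1, the F-box subunit of an SCF ligase and also an atrophy marker. Klhl31 (ENSMUSG00000044938, chr9:77636500-77660127), Klhl40 (ENSMUSG00000074001, chr9:121777607-121783818) and Klhl41 (ENSMUSG00000075307, chr2:69670120-69684230) encode BTB-kelch proteins, the family of adaptors of CUL3 ligases. KLHL40 is known to bind and stabilise nebulin and leiomodin 3, and KLHL41 to stabilise nebulin. Unc45b (ENSMUSG00000018845, chr11:82910550-82943403) encodes a myosin chaperone, and Smyd1 (ENSMUSG00000055027, chr6:71213940-71322233) a lysine methyltransferase of striated muscle that binds myosin. Positions are on GRCm38. As a gene Smyd1 overlaps the opposite-strand gene Krcc1, but the 2 transcripts that held nearly all of its counts (ENSMUST00000074301 and ENSMUST00000114186) end by position 71262281, and Krcc1 begins at 71271677.

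C2C12 is an immortalized mouse myoblast line that fuses into myotubes when serum is withdrawn. The polyclonal lines carry a gene under the dox-responsive TRE3G promoter of the XLone vector, integrated by PiggyBac: Halo-tagged MyoD1, the myogenic transcription factor, in C2C12 iMyoD1, and the adhesion genes Cdh23 and Mcam in C2C12 iCdh23 and C2C12 iMcam. PolyA RNA was sequenced in 47 libraries of 16 groups, with 3 libraries each besides the myoblast-enriched dox group, which had 2, and the labels call replicates biological. In C2C12 iMyoD1, which keeps its own Myod1, whole cultures were taken at 0 h, in growth medium with 20% serum after 24 h with 1 µg/mL dox or vehicle, and after 24, 48 and 120 h of serum starvation with dox or vehicle for the same hours. At 120 h a 40 µm filter also gave a myoblast-enriched fraction (under 40 µm) and a myotube-enriched fraction (over 40 µm), each with dox and with vehicle. C2C12 iCdh23 and C2C12 iMcam were taken at 48 h of starvation with dox or vehicle for 48 h. Samples given vehicle, which the titles call untreated, are written as without dox. The 35 libraries of 48 and 120 h carry a batch label that those of 0 and 24 h lack, so time and batch cannot be told apart between 24 and 48 h.

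Each library held between 15066338 and 50950674 estimated counts, with a median of 22837926. Levels are given in CPM with TMM scaling over all libraries, and in TPM where genes are compared with each other. A gene rose or fell when edgeR's quasi-likelihood test gave an adjusted p under 0.05 after Benjamini-Hochberg (BH) adjustment over all genes tested, since an exact permutation test of 3 libraries against 3 cannot go below p = 0.10. These p-values measure only the spread between these libraries. Whether the libraries of 2 groups overlap is given per gene, and the share of all genes without overlap was not counted. Comparisons share libraries: those of 48 h without dox serve the comparisons with 24 h, with 120 h and with dox, so these are set side by side and are not independent. Libraries of some 120 h groups differed by base composition. Among 10877 expressed genes, the median deviation from the group mean of the GC-richest 20% (from 56% GC) minus that of the GC-poorest 20% (to 44.5%) was 0.45, 0.05 and -0.51 on the log2 scale in the 3 whole cultures at 120 h without dox and 0.83, -0.49 and -0.32 in the myotube-enriched fraction with dox. Trim54 (59.9% GC) and Klhl40 (59.3%) are GC-rich, and the other 7 genes lie between 45% and 54.2%. A fit by edgeR with a GC offset per library, chosen after seeing the data, is named below where it changed a result.

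The induced genes check the dox labels only in part, because the sources used here do not say whether transgene sequence was in the transcript reference. Mcam in C2C12 iMcam rose from 18.1 ± 1.49 CPM (SD, n = 3) to 71.3 ± 3.02 CPM (SD, n = 3) (log2 fold change 2.02, SE 0.0973, edgeR BH-adjusted p = 0.000123). Cdh23 in C2C12 iCdh23 was at 389 ± 54.2 CPM (SD, n = 3) without dox and 486 ± 73.6 CPM (SD, n = 3) with dox (log2 fold change 0.32, SE 0.153, edgeR BH-adjusted p = 0.102). In C2C12 iMcam without dox, Cdh23 was at 7.73 ± 1.84 CPM (SD, n = 3). Myod1 in C2C12 iMyoD1 had log2 fold changes with dox of 0.09 at 0 h (edgeR BH-adjusted p = 0.201), -0.23 at 24 h (adjusted p = 0.00414), -0.36 at 48 h (adjusted p = 0.000446) and -1.62 in whole cultures at 120 h (adjusted p = 1.32e-05), so its counts did not rise at any of the 4 times. Mcam did rise in these cultures, by 1.29, 2.72, 0.91 and 4.14 (highest edgeR BH-adjusted p = 8.42e-06). Cdh23 had 1.32, 3.64, 1.05 and 0.78 there, the last not called (adjusted p = 0.0562). In C2C12 iCdh23 Mcam rose by 2.97 (adjusted p = 1.26e-05). The study's imaging found Halo-MyoD1 protein in part of the C2C12 iMyoD1 nuclei with dox.

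Per length, Klhl41 had the highest TPM of the 9 genes in 11 of the 16 groups and Fbxo32 in the other 5, which were the 4 groups of 0 and 24 h and C2C12 iCdh23 with dox. Klhl41 reached 519.7 ± 162 TPM (SD, n = 3) in the myotube-enriched fraction without dox, beside 96 ± 30.1 TPM (SD, n = 3) for Trim54, the next gene, and 8.84 ± 0.901 TPM (SD, n = 3) for Fbxo32, the lowest. At 0 h without dox Fbxo32 was instead the highest: it had 8.04 ± 0.917 TPM (SD, n = 3), Trim54 2.23 ± 0.585 TPM (SD, n = 3), Trim55 0.854 ± 0.0423 TPM (SD, n = 3) and Klhl41 0.303 ± 0.0356 TPM (SD, n = 3), while Trim63 and Unc45b had no counts in any of the 3 libraries. Where no library of a group had over 3 counts of a gene, the gene counted as at the floor there, and its fold is given as a lower bound.

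Within each gene, the order of the 16 group means by CPM split 8 of the genes from Fbxo32. Trim55, Trim63, Klhl31, Unc45b and Smyd1 were highest in whole cultures at 120 h without dox, at 102 ± 5.65 CPM (SD, n = 3), 63.5 ± 9.28 CPM (SD, n = 3), 99.6 ± 16.6 CPM (SD, n = 3), 234 ± 56 CPM (SD, n = 3) and 202 ± 12.2 CPM (SD, n = 3). Trim54 was highest in the myotube-enriched fraction with dox (99.8 ± 66.3 CPM (SD, n = 3)), and Klhl40 and Klhl41 in that fraction without dox (109 ± 35.1 CPM (SD, n = 3) and 826 ± 302 CPM (SD, n = 3)). All 8 were lowest at 0 h or 24 h or in C2C12 iCdh23 with dox: Trim54 in the latter (0.351 ± 0.0975 CPM (SD, n = 3)), Trim55 and Klhl40 at 24 h without dox (0.751 ± 0.0919 CPM (SD, n = 3) and 0.175 ± 0.0931 CPM (SD, n = 3)), and Trim63, Klhl31, Klhl41, Unc45b and Smyd1 at 0 h without dox, between 0 and 0.403 CPM. Of the 15 pairs of neighbours in each order, the libraries overlapped in 12 for Trim63, Klhl31 and Klhl40, in 11 for Smyd1, in 10 for Trim54, Trim55 and Klhl41, and in 9 for Unc45b, so most steps did not exceed the spread between libraries. For Smyd1 the highest group, whole cultures at 120 h without dox, did not overlap the next, the same cultures with dox (171 ± 8.53 CPM (SD, n = 3)).

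Fbxo32 ran from 17.6 ± 1.32 CPM (SD, n = 3) at 24 h without dox to 89.6 ± 1.79 CPM (SD, n = 3) in whole cultures at 120 h with dox, a far narrower span than the other genes. Its 2 highest groups, whole cultures at 120 h with dox and without (62.4 ± 4.25 CPM (SD, n = 3)), overlapped neither each other nor the group next in order. The following 11 groups, from the myotube-enriched fraction without dox (38.2 ± 2.16 CPM (SD, n = 3)) to C2C12 iCdh23 with dox (26.9 ± 1.19 CPM (SD, n = 3)), overlapped neighbour by neighbour, and 10 of its 15 pairs of neighbours overlapped in all.

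**Figure D1:**
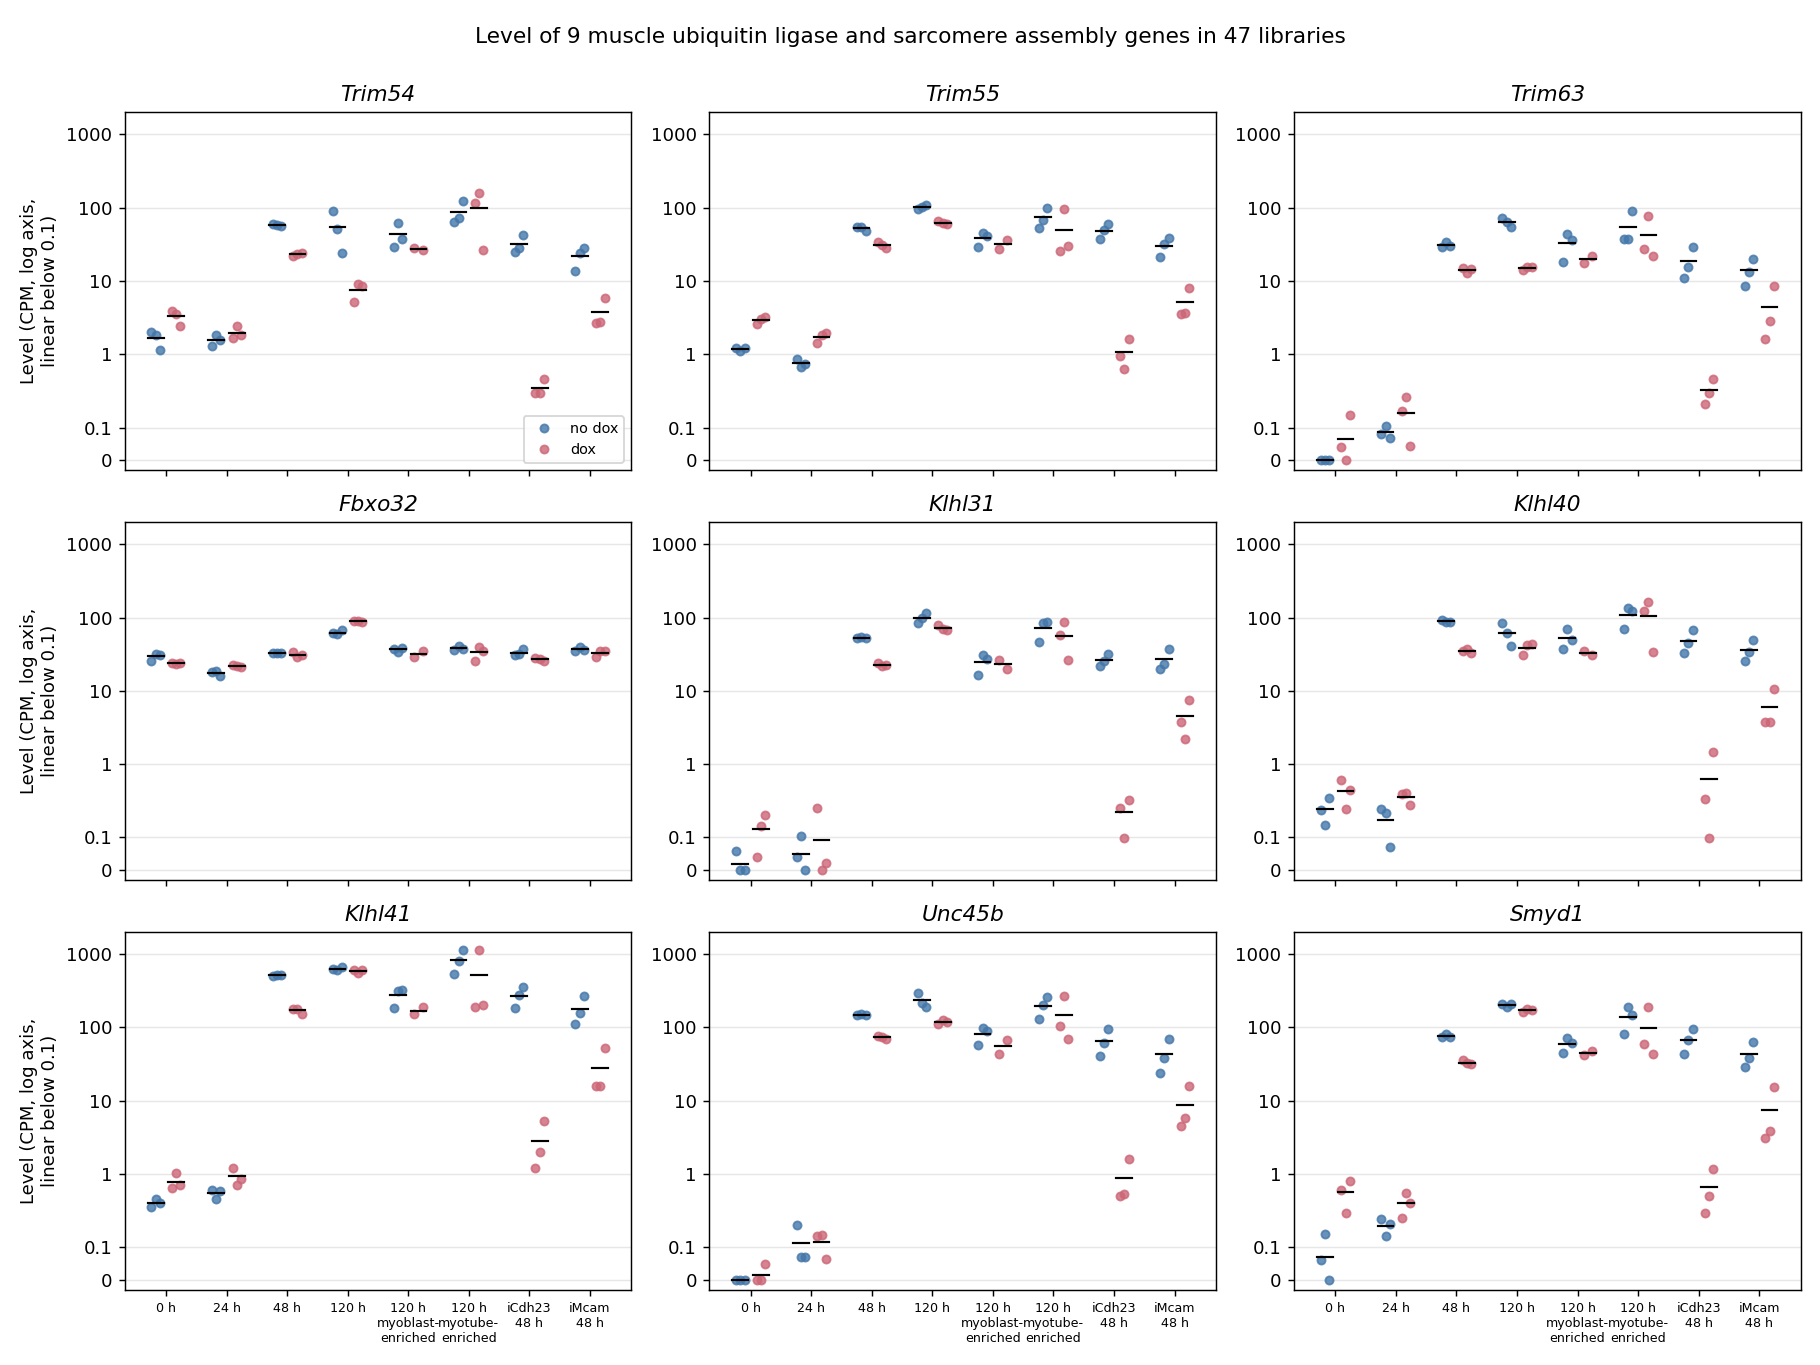
Level of each of the 9 genes (CPM, log axis, linear below 0.1) in every library, by group, without dox (blue) and with dox (red); points are libraries and lines are group means. Fbxo32 stays between 16.1 and 90.8 CPM, while the other genes lie below 4 CPM in every library of 0 and 24 h.

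Without dox, Fbxo32 fell over the first 24 h of starvation, from 25.9, 32 and 30.4 CPM at 0 h to 17.8, 18.7 and 16.1 CPM at 24 h (log2 fold change -0.71, SE 0.0938, edgeR BH-adjusted p = 1e-05). Every 24 h library lay below every 0 h library. Fbxo32 was 1 of 4 genes with enough counts to test, and 37.0% of all genes tested fell. Trim55 had 1.2, 1.1 and 1.2 CPM at 0 h and 0.853, 0.674 and 0.727 CPM at 24 h, without overlap (log2 fold change -0.60, SE 0.3, edgeR BH-adjusted p = 0.088), and Trim54 and Klhl41 had log2 fold changes of -0.06 (edgeR BH-adjusted p = 0.855) and 0.48 (adjusted p = 0.299). The sign for Trim54 turned to 0.25 with the GC offset and to values between 0.03 and 0.09 without 0 h replicate 1, 0 h replicate 2 or 24 h replicate 1. Among the genes not tested, Trim63 and Unc45b had no counts at 0 h and at most 3 and 5 counts per library at 24 h. Unc45b was called higher with no low-count filter (edgeR BH-adjusted p = 0.0477), but not in the fit of all groups (adjusted p = 0.243). Of 12 myoblast and proliferation markers 11 fell, from sums of 3146, 3146 and 3126 CPM to 970.1, 936 and 977 CPM, with Mki67 and then Top2a the most abundant and none at 0. All 4 smooth muscle markers tested fell too, from sums of 1009, 1009.7 and 1016 CPM to 137, 148 and 145 CPM, and of 5 fibroblast markers 3 fell and 1 rose, with sums of 2267, 2264 and 2340.1 CPM and 1876, 1782 and 1846 CPM. The part of these lists was not tested.

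Between 24 and 48 h without dox all 9 genes rose, beside 38.4% of all genes tested. No 48 h library of any of the 9 overlapped a 24 h library, a trait not counted over all genes. Among the RING ligases, Trim54 rose from 1.3, 1.81 and 1.56 to 59.8, 58.2 and 55.9 CPM (log2 fold change 5.21, SE 0.104, edgeR BH-adjusted p = 4.87e-14) and Trim55 from 0.853, 0.674 and 0.727 to 54.4, 54 and 48.5 CPM (log2 fold change 6.12, SE 0.116, edgeR BH-adjusted p = 3.06e-14). Trim63 was at the floor at 24 h and rose at least 279.8-fold, to 28.6, 33.8 and 30.4 CPM (edgeR BH-adjusted p = 1.69e-13). These 3 were thus high in every 48 h library and near 0 before. Of the kelch genes, Klhl31 rose at least 480.3-fold from the floor, to 52.9, 54.7 and 51.9 CPM. Klhl40 rose to 91.5, 86.6 and 87.1 CPM and Klhl41 to 502, 526 and 511 CPM, with log2 fold changes of 8.97 and 9.85 (SE 0.145 and 0.1). The chaperone gene Unc45b went from 5, 2 and 2 counts per library to 148, 151 and 146 CPM (log2 fold change 10.33, 10.94 without 24 h replicate 1), and Smyd1 from 0.244, 0.142 and 0.208 to 73.8, 82.4 and 73.2 CPM (8.57). Fbxo32 moved least, from 17.8, 18.7 and 16.1 to 32.6, 33.3 and 32.6 CPM (log2 fold change 0.91, SE 0.0773, edgeR BH-adjusted p = 1.67e-07). The summed level of 16 myotube markers, of which all rose, was 203, 213 and 226 CPM at 24 h and 20657, 19694 and 18846 CPM at 48 h, with Des and then Acta1 the most abundant. Myh8 and Actn2 were at 0 at 24 h. Other lists rose as well: 6 of 7 fibroblast markers, 4 of 4 smooth muscle markers and 10 of 12 myoblast and proliferation markers, with 1, 0 and 1 that fell, beside 38.4% of all genes. The fibroblast sums were 1876, 1782 and 1846 CPM at 24 h and 9095, 9232 and 8568 CPM at 48 h (Col3a1 the most abundant, Tcf21 at 0). The smooth muscle sums were 137, 148 and 145 CPM and 4103, 3704 and 3678 CPM (Acta2, with Myocd at 0 at 48 h), and the myoblast and proliferation sums 970.1, 936 and 977 CPM and 2095, 2015 and 2057 CPM (Top2a, then Cdh15, none at 0). The part of any list in the change of the 9 genes was not tested, and fewer cells of a type and less RNA per cell cannot be told apart in bulk RNA.

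From 48 to 120 h without dox, 7 of the 9 genes rose, beside 33.0% of all genes. Smyd1 changed most, from 73.8, 82.4 and 73.2 to 209, 188 and 209 CPM (log2 fold change 1.42, SE 0.0878, edgeR BH-adjusted p = 1.89e-06). Trim63 went from 28.6, 33.8 and 30.4 to 72.8, 63.6 and 54.2 CPM (log2 fold change 1.05, SE 0.123, edgeR BH-adjusted p = 6.93e-05). Trim55, Fbxo32, Klhl31 and Unc45b rose with log2 fold changes of 0.99, 0.95, 0.93 and 0.68. In a fit of all 16 groups at once, Unc45b missed the threshold (0.64, edgeR BH-adjusted p = 0.177, 1.2e-06 to 0.177 over its other fits). Klhl41 rose by less, to 631, 607 and 668 CPM (log2 fold change 0.33, SE 0.08, edgeR BH-adjusted p = 0.00544), and missed the threshold with the GC offset (0.05, adjusted p = 0.458) and in the fit of all groups (0.29, adjusted p = 0.61; 0.00086 to 0.61 over its other fits). Of 16 myotube markers 10 rose and 5 fell, with sums of 20657, 19694 and 18846 CPM at 48 h and 24307, 21099 and 17002 CPM at 120 h, Acta1 the most abundant and none at 0. All 12 myoblast and proliferation markers fell, beside 34.1% of all genes, from sums of 2095, 2015 and 2057 CPM to 666, 613 and 516 CPM, with Cdh15 the most abundant and none at 0. Of 7 fibroblast markers tested 4 fell and 1 rose, and all 4 smooth muscle markers tested fell. The fibroblast sums were 9095, 9232 and 8568 CPM and 7176, 5946 and 4801 CPM, and the smooth muscle sums 4103, 3704 and 3678 CPM and 2722, 2775 and 2289 CPM. The part of these lists was not tested.

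The GC-rich genes behaved otherwise between 48 and 120 h. Trim54 was at 59.8, 58.2 and 55.9 CPM at 48 h and 89.7, 50.9 and 23.7 CPM at 120 h, and Klhl40 at 91.5, 86.6 and 87.1 and 84.6, 60.8 and 40.3 CPM. In both genes the 120 h libraries stood in the order of their GC deviations (0.45, 0.05 and -0.51), which was the highest in replicate 1. Neither passed the test, with log2 fold changes of -0.07 (SE 0.36, edgeR BH-adjusted p = 0.873) and -0.50 (SE 0.213, adjusted p = 0.0633). In TPM the means of Trim54 were 65.6 and 72.7. Genes within 1 percentage point of their GC content had median log2 fold changes of -0.98 (613 genes, Trim54) and -0.92 (773 genes, Klhl40). With the GC offset Trim54 rose (log2 fold change 1.21, SE 0.173, edgeR BH-adjusted p = 5.68e-05) and Klhl40 rose (log2 fold change 0.30, SE 0.0674, edgeR BH-adjusted p = 0.0019). Without 120 h replicate 1, both were lower at 120 h (-0.60, edgeR BH-adjusted p = 0.0449 and -0.78, adjusted p = 0.000917), and without replicate 3 Trim54 had a log2 fold change of 0.29. DESeq2 called Klhl40 lower (-0.50, BH-adjusted p = 0.0247). Over all fits the adjusted p ranged from 5.68e-05 to 0.97 for Trim54 and from 0.000917 to 0.275 for Klhl40, so the direction of both depended on how base composition was treated. That of Trim54 also depended on a single library and on whether levels were in CPM or TPM.

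**Figure D2:**
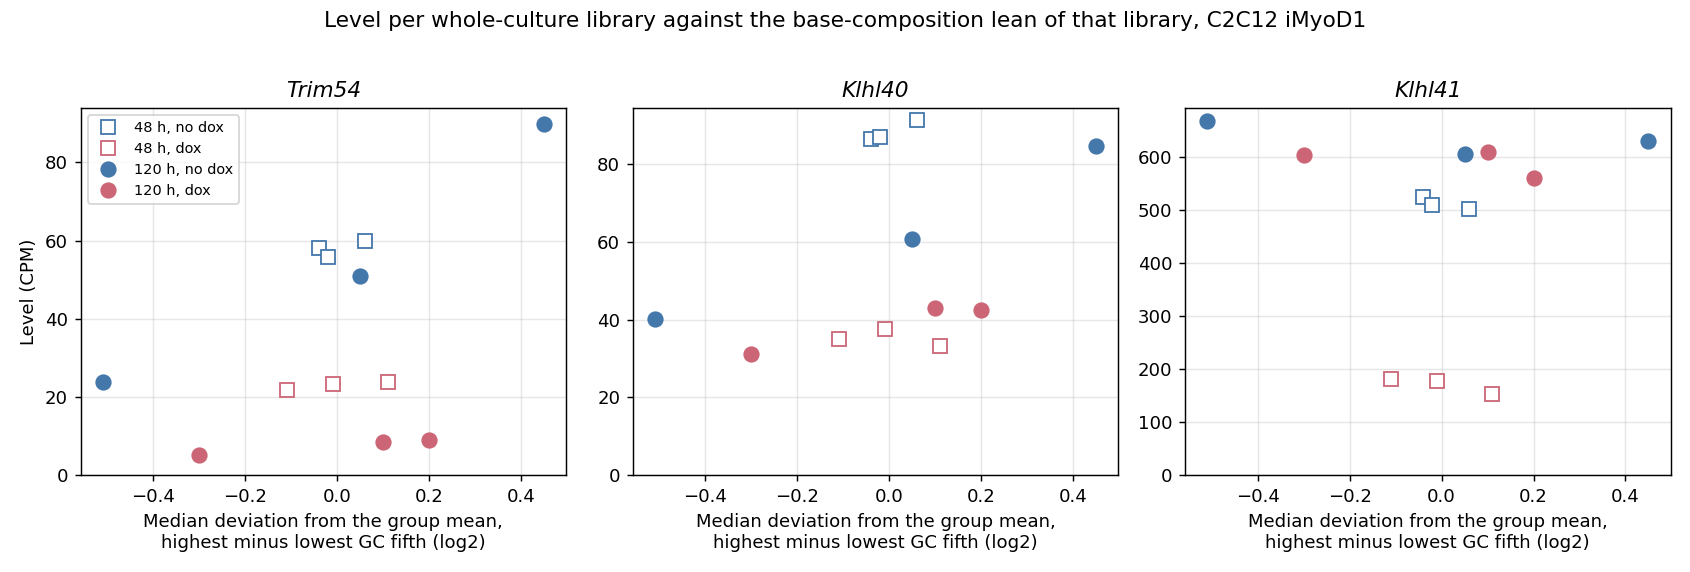
Level (CPM) of Trim54, Klhl40 and Klhl41 in each whole-culture library of C2C12 iMyoD1 at 48 h (squares) and 120 h (circles), without dox (blue) and with dox (red), against that library's GC deviation (median log2 deviation from the group mean, GC-richest minus GC-poorest 20% of genes). At 120 h without dox Trim54 runs from 23.7 to 89.7 CPM along that axis, and Klhl41 stays between 607 and 668 CPM.

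Of 4 genes tested for dox in growth medium at 0 h, Trim54 and Trim55 rose, beside 19.1% of all genes, and Fbxo32 fell, beside 18.7%. Trim55 had 1.2, 1.1 and 1.2 CPM without dox and 2.56, 3 and 3.24 CPM with dox (log2 fold change 1.34, SE 0.252, edgeR BH-adjusted p = 0.000869), and Trim54 2.03, 1.85 and 1.15 and 3.85, 3.53 and 2.45 CPM (log2 fold change 0.99, SE 0.276, edgeR BH-adjusted p = 0.0119). The groups of both genes were apart, with all dox libraries above. Fbxo32 had 25.9, 32 and 30.4 CPM without dox and 24, 23.5 and 23.8 CPM with dox, all dox libraries below (log2 fold change -0.30, SE 0.0827, edgeR BH-adjusted p = 0.0105). Klhl41 did not pass (log2 fold change 0.95, SE 0.39, edgeR BH-adjusted p = 0.0695). The other 5 genes were not tested, and among them Smyd1 had 15, 6 and 16 counts with dox against 1, 3 and 0 without, at least 3.53-fold higher. Smyd1 was called higher with no low-count filter (2.91, edgeR BH-adjusted p = 0.00162). It passed the filter in only 4 of the fits that left out 1 library, and was called higher in those. These left out dox replicate 2, or replicate 1, 2 or 3 without dox, with log2 fold changes of 3.21, 2.82, 4.10 and 2.32. The counts that let it pass were those with dox, so these 4 calls are no separate support. Its edgeR BH-adjusted p ranged from 0.00162 to 0.235 over its other fits. Without replicate 3 of the cultures without dox Trim54 missed the threshold (0.77, adjusted p = 0.0614), and without replicate 2 Fbxo32 did (-0.24, adjusted p = 0.0674). In the fit of all groups none of the 3 calls held (adjusted p = 0.337 for Trim54, 0.0673 for Trim55 and 0.13 for Fbxo32; 0.00122 to 0.337, 5.25e-05 to 0.0673 and 0.0025 to 0.13 over their other fits).

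After 24 h of starvation with dox, Trim55 and Fbxo32 rose, 2 of the 4 genes tested, beside 31.1% of all genes. Trim55 had 0.853, 0.674 and 0.727 CPM without dox and 1.41, 1.85 and 1.95 CPM with dox (log2 fold change 1.18, SE 0.251, edgeR BH-adjusted p = 0.00134), and Fbxo32 17.8, 18.7 and 16.1 and 22.4, 21.8 and 21.3 CPM (log2 fold change 0.29, SE 0.0779, edgeR BH-adjusted p = 0.00623). Every dox library was above every library without dox in both genes. Trim54 did not pass (log2 fold change 0.29, edgeR BH-adjusted p = 0.288), nor did Klhl41 (0.73, adjusted p = 0.0672), which was called higher with the GC offset (0.84, adjusted p = 0.0371; 0.0371 to 0.525 over its other fits). Fbxo32 missed the threshold in the fit of all groups (0.26, adjusted p = 0.0883; 0.0012 to 0.0883 over its other fits).

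At 48 h with dox, 8 of the 9 genes fell, beside 28.7% of all genes. The dox libraries of these 8 all lay below those without dox, a trait not counted over all genes. Klhl41 fell from 502, 526 and 511 to 181, 177 and 154 CPM (log2 fold change -1.61, SE 0.0711, edgeR BH-adjusted p = 5.63e-08). Trim54 fell from 59.8, 58.2 and 55.9 to 21.8, 23.3 and 23.8 CPM (log2 fold change -1.36, SE 0.0728, edgeR BH-adjusted p = 1.42e-07). Klhl40 fell from 91.5, 86.6 and 87.1 to 35.1, 37.5 and 33.3 CPM (log2 fold change -1.34, SE 0.0669, edgeR BH-adjusted p = 9.35e-08). With the GC offset these 3 had -1.49, -1.59 and -1.57, so which fell most depended on how base composition was treated. In each of them the dox libraries lay close together, far under every library without dox. Klhl31, Smyd1, Trim63 and Unc45b fell with log2 fold changes of -1.23, -1.22, -1.15 and -1.02. Trim55 fell least of the RING ligases, from 54.4, 54 and 48.5 to 34.1, 30.8 and 28.5 CPM (log2 fold change -0.76, SE 0.0858, edgeR BH-adjusted p = 2.86e-05). Trim55 and Unc45b missed the threshold in the fit of all groups (adjusted p = 0.0658 and 0.0553; 1.42e-13 to 0.0658 and 6.17e-43 to 0.0553 over their other fits). Fbxo32 did not pass, at 32.6, 33.3 and 32.6 CPM without dox and 33.9, 29 and 30.5 CPM with dox (log2 fold change -0.09, SE 0.0822, edgeR BH-adjusted p = 0.364), and its means were 7.64 and 7.69 TPM. All 16 myotube markers fell too, with a median log2 fold change of -1.19, and their summed level was 20657, 19694 and 18846 CPM without dox and 8189, 8529 and 8397 CPM with dox. Acta1 was the most abundant and no marker was at 0, and the part of these cells in the change was not tested.

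In whole cultures at 120 h the genes moved in both directions with dox: 7 fell, beside 23.7% of all genes, 1 rose, beside 21.4%, and Klhl41 did not pass. The RING ligases Trim54 and Trim63 fell furthest. Trim54 had 89.7, 50.9 and 23.7 CPM without dox and 5.14, 9.11 and 8.48 CPM with dox (log2 fold change -2.87, SE 0.434, edgeR BH-adjusted p = 0.000688), and Trim63 72.8, 63.6 and 54.2 and 14.3, 15.3 and 15.7 CPM (log2 fold change -2.09, SE 0.133, edgeR BH-adjusted p = 3.94e-06). The libraries without dox were widely spread for Trim54, yet the lowest of them was above every dox library. Trim55 fell from 97.1, 101 and 108 to 65.9, 61.4 and 60 CPM (log2 fold change -0.72, SE 0.0889, edgeR BH-adjusted p = 0.000202) and Unc45b from 298, 213 and 192 to 110.2, 125 and 120 CPM (log2 fold change -1, SE 0.152, edgeR BH-adjusted p = 0.000729). Fbxo32 went the other way, from 61.3, 58.8 and 67 to 90.4, 90.8 and 87.5 CPM, with no overlap (log2 fold change 0.51, SE 0.0892, edgeR BH-adjusted p = 0.00154). Klhl41 was at 631, 607 and 668 CPM without dox and 605, 561 and 609.7 CPM with dox, overlapping (log2 fold change -0.12, SE 0.0808, edgeR BH-adjusted p = 0.272), and was called lower with the GC offset (-0.21, adjusted p = 0.00789; 0.00789 to 0.908 over its other fits). Its means in TPM stood the other way round, at 478 and 505 TPM.

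The remaining calls at 120 h were small or rested on single libraries. Smyd1 fell from 209, 188 and 209 to 162, 179.5 and 170.2 CPM (log2 fold change -0.25, SE 0.0843, edgeR BH-adjusted p = 0.0342), and missed the threshold without replicate 1 of either group (-0.24, adjusted p = 0.062 without dox; -0.22, adjusted p = 0.119 with dox) or dox replicate 3 (-0.26, adjusted p = 0.101). Klhl31 fell from 83.3, 99 and 116 to 78.3, 69.6 and 66.7 CPM (log2 fold change -0.49, SE 0.129, edgeR BH-adjusted p = 0.0126), and missed it without dox replicate 3 (-0.45, adjusted p = 0.0552). Klhl40 had overlapping groups, 84.6, 60.8 and 40.3 CPM without dox and 31.1, 42.5 and 42.9 CPM with dox (log2 fold change -0.69, SE 0.242, edgeR BH-adjusted p = 0.0433). Its call was lost without replicate 1 or 2 of the cultures without dox (-0.40, adjusted p = 0.117 and -0.71, adjusted p = 0.102) and without dox replicate 1, 2 or 3 (-0.55, adjusted p = 0.135; -0.76, adjusted p = 0.0746; -0.77, adjusted p = 0.0744), and held with the GC offset at a smaller change (-0.36, SE 0.089, adjusted p = 0.00372). Of the 9 genes, 4 fell without dox replicate 3. In the fit of all groups, Trim54 and Trim63 alone of the 7 were called lower, with adjusted p of 0.0671 for Trim55, 0.275 for Klhl31, 0.204 for Klhl40, 0.0512 for Unc45b and 0.693 for Smyd1. Over their other fits the adjusted p (edgeR or DESeq2, BH) ranged from 4.45e-10 to 0.0671, 1.75e-05 to 0.275, 0.000808 to 0.204, 5.73e-09 to 0.0512 and 0.0019 to 0.693 in that order. Genes within 1 percentage point of the GC content of Trim54 and Klhl40 had medians of -0.33 and -0.30 in the same comparison.

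The marker lists also split at 120 h. Of 16 myotube markers 9 fell and 2 rose, with a median of -0.50 on the log2 scale and extremes of -2.58 (Myog, a myogenic transcription factor) and 1.19 (Actn2, a Z-disc protein). Their summed level was 24307, 21099 and 17002 CPM without dox and 12250.3, 14730.3 and 14423 CPM with dox, and the most abundant gene was Acta1 without dox and Myh3 with dox, with no marker at 0. Of 12 myoblast and proliferation markers 7 rose and 2 fell, and the sum was 666, 613 and 516 CPM without dox and 792, 767 and 766 CPM with dox. The part of either list in the changes of the 9 genes was not tested.

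The dox effects at 48 and 120 h were compared as an interaction over those 4 groups. The effect was higher at 120 h in 4 genes, beside 16.8% of all genes, and lower in 2, beside 17.2%. Among the 4, Klhl41 had the greatest difference (log2 fold change 1.49, SE 0.109, edgeR BH-adjusted p = 2.73e-07): it fell by 1.61 on the log2 scale at 48 h and had -0.12 at 120 h. Smyd1 (0.96), Klhl31 (0.74) and Fbxo32 (log2 fold change 0.60, SE 0.122, edgeR BH-adjusted p = 0.00189) also had higher effects at 120 h. Trim54 (log2 fold change -1.51, SE 0.468, edgeR BH-adjusted p = 0.0231) and Trim63 (log2 fold change -0.94, SE 0.164, edgeR BH-adjusted p = 0.000651) had lower effects at 120 h than at 48 h. Trim55 and Unc45b had interactions of 0.04 and 0.03 (adjusted p = 0.85 and 0.925). Klhl40 did not pass (0.66, edgeR BH-adjusted p = 0.0803), but was called with DESeq2 (0.66, adjusted p = 0.0459), with no low-count filter (0.59, adjusted p = 0.0253), with the GC offset (1.2, adjusted p = 4.19e-07) and without 120 h replicate 1 without dox (0.94, adjusted p = 0.00378; 4.19e-07 to 0.488 over its other fits). The Trim54 call was lost without 120 h dox replicate 1 (-1.30, adjusted p = 0.062), and its value moved to -0.97 without 120 h replicate 1 without dox and to -0.87 with the GC offset. In the fit of all groups Fbxo32 alone kept its call, with adjusted p = 0.0623 for Trim54, 0.31 for Trim63, 0.302 for Klhl31, 0.103 for Klhl41 and 0.272 for Smyd1. Their adjusted p over the other fits (edgeR or DESeq2, BH) ranged from 2.01e-05 to 0.0623, 1.76e-06 to 0.31, 0.000149 to 0.302, 4.47e-37 to 0.103 and 2.2e-12 to 0.272 in that order.

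**Figure D3:**
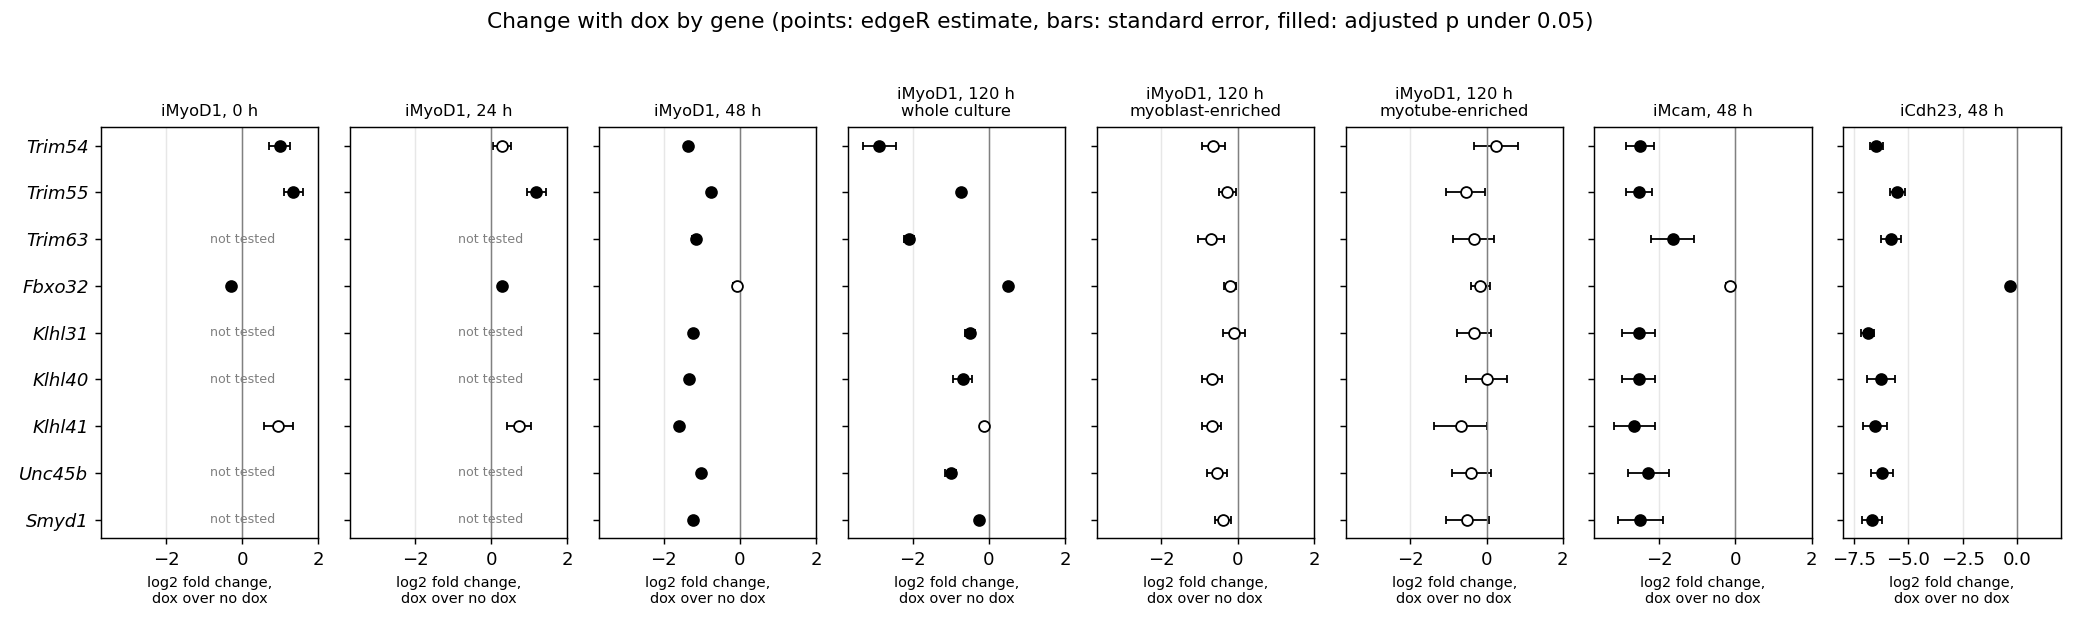
Log2 fold change with dox of each gene in the 8 dox comparisons (points, edgeR estimate; bars, standard error; filled where the BH-adjusted p is under 0.05); the axis for iCdh23 spans a wider range than the others. Fbxo32 lies between -0.31 and 0.51 in all 8, while the other genes reach -6.88 in iCdh23.

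Between the filtered fractions at 120 h without dox, all 9 genes had positive log2 fold changes towards the myotube-enriched fraction, but none passed the test, beside 0.578% of all genes called higher (81 genes, with 2251 genes at an unadjusted edgeR p under 0.05). Klhl41 had 183, 315 and 322 CPM in the myoblast-enriched fraction and 541, 795 and 1142 CPM in the myotube-enriched fraction (log2 fold change 1.62, SE 0.326, edgeR BH-adjusted p = 0.0778), and Klhl31 16.4, 30.8 and 27.5 and 46.5, 84.2 and 86 CPM (log2 fold change 1.56, SE 0.305, edgeR BH-adjusted p = 0.0719). In both genes every myotube-enriched library was above every myoblast-enriched library, and replicate 1 was the lowest of each fraction. No record pairs these libraries, but same-numbered libraries deviated alike from their group means (correlations 0.136 to 0.47). With the replicate number as a block 6 genes rose, beside 3.17% of all genes. These were Klhl31 (log2 fold change 1.55, SE 0.127, edgeR BH-adjusted p = 0.00469), Klhl41 (1.60, adjusted p = 0.00766), Unc45b (1.27, adjusted p = 0.00988), Smyd1 (1.22, adjusted p = 0.0136), Klhl40 (1.07, adjusted p = 0.0144) and Trim55 (0.94, adjusted p = 0.0305).

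Also with the block, Trim54 (1.04, edgeR BH-adjusted p = 0.0953), Trim63 (0.74, adjusted p = 0.211) and Fbxo32 (0.08, adjusted p = 0.759) did not pass. The Fbxo32 means were 8.94 and 8.84 TPM, the other way round from CPM. Unblocked, the same 6 genes were called by DESeq2 (773 genes in all) and with no low-count filter, and 5 of them in the fit of all groups. Without myotube-enriched replicate 1, Klhl31 (1.79, adjusted p = 0.0257), Klhl41 (1.84, adjusted p = 0.0341), Smyd1 (1.54, adjusted p = 0.0301) and Unc45b (1.5, adjusted p = 0.0361) passed. Their adjusted p over the other fits ranged from 0.000124 to 0.241, 5.6e-05 to 0.267, 0.00384 to 0.349 and 0.00106 to 0.3 in that order, and for Klhl40 and Trim55 from 0.0105 to 0.411 and 0.0227 to 0.395. The number of all genes called, 83 with all libraries, was 0, 0 and 1 without myoblast-enriched replicate 1, 2 and 3, and 249, 47 and 0 without myotube-enriched replicate 1, 2 and 3. The myotube markers summed to 8724, 14283 and 12299 CPM in the myoblast-enriched and 18849.8, 24433 and 32125 CPM in the myotube-enriched fraction, with Acta1 the most abundant and none at 0. The myoblast and proliferation markers summed to 1873, 958 and 1344 CPM and 1095, 619.5 and 646 CPM, so both lists were present in both fractions. Fibroblast markers summed to 14613, 15078 and 15855 CPM and 15460.3, 3692 and 10339 CPM, and smooth muscle markers to 2383, 3202 and 3122 CPM and 1761, 1775 and 2453 CPM, with Col3a1 and Acta2 the most abundant and Tcf21 and Myocd at 0. None of the 7 and 4 tested passed, and the part of these lists was not tested.

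With dox, none of the 9 genes passed the test between the fractions, beside 0% of all genes called by edgeR (183 genes at an unadjusted p under 0.05; 0 called by DESeq2). Log2 fold changes ran from 0.10 for Fbxo32 to 1.90 for Trim54, with the lowest edgeR BH-adjusted p at 1. The myotube-enriched libraries stood far apart: Klhl41 had 190, 1141 and 202 CPM there and 153 and 187 CPM in the 2 myoblast-enriched libraries, and Trim54 116, 156 and 26.8 and 28.1 and 26.8 CPM. Replicate 2 was high in both genes, replicate 3 low in both, and replicate 1 high in Trim54 only of the 2, and this last library had the strongest GC deviation (0.83). In the fit of all groups, Trim54 was called higher (1.87, adjusted p = 0.0423; 0.0423 to 1 over its other fits). Summed myotube markers were 24112, 31058 and 8232 CPM in the myotube-enriched and 8685 and 8239 CPM in the myoblast-enriched libraries, and fibroblast markers 4261, 11482 and 8499 and 5298 and 6287 CPM. Their part was not tested.

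Dox within a fraction called none of the 9 genes. With the replicate number as a block, 7 fell in the myoblast-enriched fraction, beside 2071 of 14249 genes tested. The 2 pairs there had correlations of 0.387 and 0.515, but no pairing was used because the dox group lacked a replicate. In the myoblast-enriched fraction, 4.34% of all genes were called (619 by edgeR, 3174 at an unadjusted p under 0.05; 1616 by DESeq2), and the 9 log2 fold changes were negative, from -0.71 (Trim63) to -0.10 (Klhl31). Klhl41 had 183, 315 and 322 CPM without dox and 153 and 187 CPM with dox, and Trim63 18.2, 43 and 36.2 and 17.3 and 22.1 CPM, both with overlapping libraries. Trim54 had 29.1, 62.6 and 37.3 CPM without dox and 28.1 and 26.8 CPM with dox. Klhl40 had 37.1, 70.1 and 50.1 and 34.4 and 31.1 CPM. The groups of both were apart, but neither gene passed (edgeR BH-adjusted p = 0.268 and 0.18). How many of all genes had groups apart in this small comparison was not counted. Klhl41 and Trim63 were called lower without replicate 1 of the libraries without dox (-0.90, edgeR BH-adjusted p = 0.0346 and -1, adjusted p = 0.0425; 0.00124 to 0.615 and 0.00277 to 0.705 over their other fits). With no low-count filter 5 genes were called lower: Trim54 (-0.65), Trim63 (-0.72), Klhl40 (-0.68), Klhl41 (-0.69) and Unc45b (-0.56). Beside them, 1205 of all 22910 genes tested in that fit were called lower. The number of all genes called was 0 without dox replicate 2, 14 without dox replicate 3 and 0 without replicate 3 of the libraries without dox. In the myotube-enriched fraction 0% of all genes were called (79 at an unadjusted edgeR p under 0.05; 1 by DESeq2), and the 9 log2 fold changes ran from -0.68 (Klhl41) to 0.24 (Trim54), each with overlapping libraries. The sign for Trim54 there was positive with all libraries and -0.23 without dox replicate 2. The dox effects in the fractions were compared as an interaction, which called 0% of all genes (218 at an unadjusted edgeR p under 0.05; 2 by DESeq2) and none of the 9, with values from -0.30 for Trim55 to 0.85 for Trim54.

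In C2C12 iCdh23 at 48 h all 9 genes fell with dox, beside 32.4% of all genes, and 8 of them fell to group means between 0.224 and 2.85 CPM. Among the kelch genes, Klhl31 fell from 22.1, 25.3 and 31.7 to 0.25, 0.0993 and 0.321 CPM (log2 fold change -6.88, SE 0.312, edgeR BH-adjusted p = 6.34e-06). Klhl41 fell from 183, 274 and 352 to 1.21, 2.02 and 5.31 CPM (log2 fold change -6.55, SE 0.549, edgeR BH-adjusted p = 4.76e-05). Smyd1 fell from 43.1, 66.6 and 95.3 to 0.292, 0.496 and 1.18 CPM (log2 fold change -6.67, SE 0.477, edgeR BH-adjusted p = 2.39e-05). Within each group, replicate 3 was the highest of these 3 genes, and no libraries of the 2 groups came close. Trim54, Klhl40, Unc45b, Trim63 and Trim55 fell with log2 fold changes of -6.48, -6.25, -6.20, -5.80 and -5.51. Without dox replicate 3, Klhl40, Klhl41, Smyd1 and Unc45b were called at -7.86, -7.37, -7.39 and -6.97, each over 1.5 times further in fold. Fbxo32 fell far less in CPM, from 30.6, 32.1 and 37.1 to 28.2, 26.8 and 25.8 CPM, without overlap (log2 fold change -0.31, SE 0.103, edgeR BH-adjusted p = 0.0319). In TPM its means went the other way, from 9.59 ± 1.07 TPM (SD, n = 3) to 10.4 ± 0.876 TPM (SD, n = 3), with overlap. Its call was lost with the replicate block (-0.30, adjusted p = 0.0502), with the GC offset (-0.20, adjusted p = 0.0923) and with both (-0.20, adjusted p = 0.132). It was also lost without replicate 2 of the cultures without dox (-0.35, adjusted p = 0.0561) and without dox replicate 1, 2 or 3 (-0.34, adjusted p = 0.0507; -0.29, adjusted p = 0.101; -0.28, adjusted p = 0.113; 0.0198 to 0.132 over its other fits, edgeR or DESeq2). All 16 myotube markers fell, and their sum was 8073, 10676 and 13641 CPM without dox and 282, 276 and 407 CPM with dox, with Acta1 and then Des the most abundant and none at 0. Of 12 myoblast and proliferation markers 10 fell, from sums of 1473, 1550.4 and 1665 to 324, 288 and 363 CPM. The part of either list was not tested.

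In C2C12 iMcam at 48 h, 8 of the 9 genes fell with dox, beside 24.8% of all genes. Klhl41 fell from 111, 156 and 272 to 15.7, 16.1 and 51.9 CPM (log2 fold change -2.65, SE 0.531, edgeR BH-adjusted p = 0.00529). Trim55 fell from 21.3, 31.4 and 38.2 to 3.57, 3.67 and 8.06 CPM (log2 fold change -2.53, SE 0.349, edgeR BH-adjusted p = 0.00119) and Unc45b from 24, 38.7 and 68.9 to 4.55, 5.76 and 16 CPM (log2 fold change -2.28, SE 0.535, edgeR BH-adjusted p = 0.01). Replicate 3 was the highest in both groups for all 3, and the groups did not overlap. Trim54, Klhl31, Klhl40 and Smyd1 fell with log2 fold changes of -2.51, -2.54, -2.54 and -2.50. Without dox replicate 3 the values were over 1.5 times further in fold for Klhl31 (-3.13), Klhl40 (-3.22), Klhl41 (-3.46), Unc45b (-3.04) and Smyd1 (-3.58), all still called. Trim63 came nearest to the threshold, with 8.59, 13.4 and 20 CPM without dox and 1.62, 2.85 and 8.57 CPM with dox (log2 fold change -1.65, SE 0.567, edgeR BH-adjusted p = 0.0443). Its call was lost with DESeq2 (-1.67, adjusted p = 0.0536) and without replicate 2 or 3 of the cultures without dox (-1.69, adjusted p = 0.084 and -1.30, adjusted p = 0.0994) or dox replicate 1 or 2 (-1.25, adjusted p = 0.0961 and -1.42, adjusted p = 0.135), and held with the replicate block (-1.81, adjusted p = 0.00189) and with block and GC offset (-1.84, adjusted p = 0.00183). Without dox replicate 3 it was -2.60 (0.00183 to 0.135 over its other fits, edgeR or DESeq2). Fbxo32 did not pass, at 35.1, 39.5 and 36.1 CPM without dox and 28.5, 34.6 and 34.6 CPM with dox, without overlap (log2 fold change -0.14, SE 0.11, edgeR BH-adjusted p = 0.31), and in TPM its means stood the other way round (11.2 and 12.1 TPM). Of 16 myotube markers 14 fell, from sums of 5988, 7968 and 13534 CPM to 995, 1022 and 2535 CPM, with Acta1 the most abundant and none at 0, and replicate 3 was again the highest of each group. The myoblast and proliferation markers, of which 10 of 12 fell, summed to 1247, 1211 and 1422 CPM without dox and 446, 367 and 481 CPM with dox, and the part of both lists was not tested.

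The dox effects in the 2 lines were compared as an interaction, and 8 of the 9 genes had a weaker fall in C2C12 iMcam than in C2C12 iCdh23, beside 7.61% of all genes with a higher effect there. Klhl31 (log2 fold change 4.31, SE 0.686, edgeR BH-adjusted p = 0.00287) and Trim55 (log2 fold change 2.96, SE 0.531, edgeR BH-adjusted p = 0.00539) had the highest and lowest values of the 8 with all libraries. The order moved with single libraries. Without C2C12 iCdh23 dox replicate 3 the value was 5.29 for Klhl40, 4.87 for Smyd1, 4.69 for Klhl41 and 4.67 for Unc45b, in place of 3.69, 4.15, 3.87 and 3.89. Without C2C12 iMcam dox replicate 3 these were 3.01, 3.07, 3.08 and 3.14, with 3.72 for Klhl31 in place of 4.31, and Trim63 moved from 4.13 to a value 1.94 times lower in fold. Fbxo32 had an interaction of 0.15 (edgeR BH-adjusted p = 0.607). The number of all genes called, 1548, was 917 without C2C12 iCdh23 dox replicate 2, while the count of 8 genes was the same in every fit that left out 1 library.

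The counts per transcript show which annotated transcript carried each gene, in libraries with at least 50 counts of it. Fbxo32, Klhl31, Klhl40 and Klhl41 have a single transcript in the counts. ENSMUST00000013771 carried 98.5% ± 6.49 (SD, n = 38 libraries) of the Trim54 counts, ENSMUST00000029139 98% ± 3.25 of those of Trim55 (SD, n = 38), ENSMUST00000105875 97.3% ± 12.1 of those of Trim63 (SD, n = 31) and ENSMUST00000018989 99.8% ± 0.315 of those of Unc45b (SD, n = 32). Single libraries stood apart from these means. ENSMUST00000135576, a processed Trim63 transcript without a coding sequence, held 63.5% of 432 counts in the myotube-enriched dox library of replicate 1 (Wilson 95% interval 58.8 to 67.8%) and at most 0.981% in the rest of the 31. ENSMUST00000202769 held 38.9% of 210 Trim54 counts (Wilson 95% interval 32.7 to 45.8%) in the 120 h whole culture with dox, replicate 3. Intervals cover counting error only. Smyd1 alone divided its counts between 2 coding transcripts, 53.4% ± 10.6 in ENSMUST00000074301 and 46.6% ± 10.6 in ENSMUST00000114186 (SD, n = 32). The share of ENSMUST00000074301 was highest in the myotube-enriched dox library of replicate 1, at 96.1% (Wilson 95% interval 94.6 to 97.2%), and lowest in the myoblast-enriched dox library of replicate 2, at 32.7% (29.7 to 35.9%). With at least 10 or 200 counts in place of 50, each mean moved by less than 1 SD, but for Trim54 and Smyd1 the spread widened at 10 counts. The SD for ENSMUST00000013771 of Trim54 was 21.4 there, with ENSMUST00000202769 at up to 100% in a library, and the Smyd1 shares ran from 0 to 100% (SD 21.4).

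Other genes of the same pathways were counted in the 4 comparisons in which most of the 9 genes fell, in the order C2C12 iMyoD1 at 48 h, its whole cultures at 120 h, C2C12 iCdh23 and C2C12 iMcam. The median over all genes tested was 0.01, 0.00, 0.00 and 0.02 there, beside -1.22, -0.69, -6.25 and -2.51 for the 9 genes. Because the comparisons were picked by the fall of the 9 genes, this contrast is a description and no test. Over all genes tested, 27.9%, 21.4%, 31.3% and 24.2% rose and 28.7%, 23.7%, 32.4% and 24.8% fell, and each count of a list below stands beside these shares. Of the cullin-RING core, 16 of 17 listed genes had a symbol match; 2 and 7 of 16, 3 and 2 of 15, 0 and 7 of 15 and 0 and 6 of 15 rose and fell, with medians of -0.17, 0.02, -0.25 and -0.26. Its extremes were Cul9 (2.03) and the CUL4 adaptor gene Ddb1 (-0.49) at 48 h, Cand1 (0.69), a cullin exchange factor, and Elob (-1.23) at 120 h, and Ddb1 at -1.01 and -0.72 in the other lines, where the smallest falls were Eloc (-0.36) and Nedd8 (-0.28). Among other muscle-related ubiquitin ligase genes, 2 and 7 of 18, 5 and 8 of 21, 5 and 10 of 18 and 3 and 6 of 17 rose and fell (medians -0.11, -0.30, -0.52 and -0.10). Trim72, which encodes the membrane repair protein MG53, fell most at 48 h (-1.65), in C2C12 iCdh23 (-6.65) and in C2C12 iMcam (-2.86), and Fbxo40 at 120 h (-2.88). The highest were Fbxo21 (0.79, 1.21 and 0.88) and, at 120 h, Asb12 (2.23).

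Among myosin and sarcomere chaperones, 5 and 9 of 22, 3 and 7 of 22, 2 and 14 of 22 and 2 and 11 of 22 rose and fell (medians -0.10, -0.09, -0.66 and -0.37). Unc45a, the paralog of Unc45b expressed outside muscle too, rose by 0.67 at 48 h, where the small heat shock gene Hspb7 fell by 2.22 on the log2 scale, and Hspb6 (1.05) and Hspa1a (-1.28) were the extremes at 120 h. Hspb3 was at least 26.4-fold lower in C2C12 iCdh23, where it was at the floor with dox, and had -3.13 in C2C12 iMcam, and Smyd3 had 1.45 and 0.83. Thin filament and assembly partners, which include the nebulin and leiomodin genes, mostly fell: 0 and 12 of 14, 3 and 9 of 15, 0 and 14 of 15 and 0 and 12 of 14 rose and fell, with medians of -1.35, -0.58, -6.02 and -2.39. At 48 h their called changes ran from -1.96 (Nrap) to -1.01 (Tmod1), and at 120 h from -3.87 (Xirp2) to 1.2 (Mybpc2). Xirp1 fell most in the other lines (-7.64 and -3.09) and Fhod3 least (-0.70 and -0.58).

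Atrophy and FoxO regulators rose and fell in 8 and 10 of 25, 5 and 12 of 25, 6 and 14 of 25 and 6 and 7 of 24 (medians -0.08, -0.23, -0.48 and 0.07). The list holds genes that promote and genes that restrain muscle wasting, so its counts give no direction for that pathway. Extremes were Klf15 (1.73) and Hdac9 (-2.61) at 48 h, Ppargc1a (0.88) and Trib3 (-5.06) at 120 h, Fkbp5 (1.02) and Fst (-5.86) in C2C12 iCdh23, and Sesn2 (0.69) and Hdac9 (-2.46) in C2C12 iMcam. For autophagy genes, 10 and 3 of 16, 2 and 6 of 16, 5 and 4 of 16 and 5 and 0 of 16 rose and fell (medians 0.29, -0.25, -0.08 and 0.21). Map1lc3b rose at 48 h (0.75) and in C2C12 iMcam (0.66), where the smallest rise was Ulk1 (0.27), and Bnip3, a mitophagy receptor gene, fell at 48 h (-1.35) and in C2C12 iCdh23 (-1.78) and rose at 120 h (0.68). Ctsl (-1.41) was the lowest at 120 h and Gabarapl2 (0.72) the highest in C2C12 iCdh23. Of the proteasome subunits, 2 and 25 of 36, 3 and 17 of 36, 1 and 30 of 36 and 2 and 33 of 36 rose and fell, with medians of -0.36, -0.22, -0.56 and -0.62. Psme1, an interferon-inducible activator subunit, rose in all 4 (1.36, 1.32, 1.43 and 1.01), and the lowest were Psmc6 (-0.73 and -1.25 at 48 h and in C2C12 iCdh23), Adrm1 (-0.91 at 120 h) and Psmd14 (-0.97 in C2C12 iMcam). For deubiquitinases of muscle the counts were 2 and 4 of 9, 2 and 1 of 8, 2 and 4 of 9 and 2 and 3 of 9 (medians -0.12, 0.06, -0.05 and 0.07). Uchl1 was highest at 48 h (0.66), in C2C12 iCdh23 (3.69) and in C2C12 iMcam (0.91), and Usp13 at 120 h (1.09), while Usp28 (-0.93 and -0.28) and Usp14 (-1.02 and -0.80) were lowest in C2C12 iMyoD1 and in the other lines.

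Markers of other cell types were measured beside the 9 genes, and their part in the results was not tested. Fibroblast markers summed to 617 to 15855 CPM per library, with Col3a1 the most abundant and Tcf21 at 0 in every group; 3 and 4 of 7, 1 and 4 of 7, 0 and 6 of 6 and 0 and 4 of 7 rose and fell in the same 4 comparisons, beside 27.9%, 21.4%, 31.3% and 24.2% of all genes that rose and 28.7%, 23.7%, 32.4% and 24.8% that fell. Of these 8 markers, 7 had enough counts to test at 48 h, and C2C12 cells may express them themselves. Their sums were 9095, 9232 and 8568 CPM at 48 h without dox and 4656, 4675 and 3944 CPM with dox, 7176, 5946 and 4801 and 3008, 3109 and 3248 CPM in whole cultures at 120 h, 6491, 6757 and 7593 and 818, 701 and 797 CPM in C2C12 iCdh23, and 7978, 9233 and 10896 and 3326, 3785 and 4144 CPM in C2C12 iMcam. Smooth muscle markers summed to 86.5 to 4103 CPM, mostly Acta2, which immature muscle cells also express (1 and 2 of 4, 3 and 1 of 5, 2 and 3 of 5 and 0 and 3 of 4 rose and fell). The group means of their sums were lower with dox in all 4 comparisons. They went from 3828 to 2429 CPM at 48 h and from 2595 to 1849.6 CPM in whole cultures at 120 h. In C2C12 iCdh23 they went from 2171 to 112 CPM, and in C2C12 iMcam from 2658 to 678 CPM. Cardiomyocyte markers stayed at 1.42 to 77.1 CPM, with Nkx2-5 or Myh6 the most abundant in most groups and Myl7 at 0 in most (0 and 1 of 3, 0 and 1 of 2, 0 and 2 of 3 and 0 and 1 of 2). Adipocyte markers stayed at 8.8 to 66.1 CPM, mostly Cebpa (1 and 0 of 1, 0 and 0 of 1, 0 and 1 of 1 and 0 and 0 of 1). Osteoblast markers stayed at 23.1 to 96 CPM, mostly Runx2, with Ibsp at 0 in most groups (0 and 2 of 2, 0 and 3 of 3, 1 and 2 of 3 and 0 and 2 of 2). In the remaining comparisons, myotube markers rose and fell in 4 and 0 of 5 at 0 h and 3 and 1 of 12 at 24 h with dox, and myoblast and proliferation markers in 1 and 6 of 12 and 3 and 6 of 12, beside 19.1% and 18.7% of all genes at 0 h and 31.1% and 31.7% at 24 h. At 48 h with dox the latter counts were 2 and 8 of 12, with sums of 2095, 2015 and 2057 CPM without dox and 1208, 1237 and 1219 CPM with dox.

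The lists were also summed in the remaining dox comparisons, and their part was not tested there either. With dox at 0 h, fibroblast markers went from 2267, 2264 and 2340.1 CPM to 1409, 1463 and 1473 CPM, with Lum and Tcf21 at 0, and 0 and 4 of 4 rose and fell. At 24 h they went from 1876, 1782 and 1846 CPM to 631, 617 and 617 CPM, with Tcf21 at 0 and Lum at 0 with dox, and 2 and 3 of 6 rose and fell. Smooth muscle markers had 1009, 1009.7 and 1016 and 779, 757 and 795 CPM at 0 h, and 137, 148 and 145 and 105, 112 and 112 CPM at 24 h (2 and 1 of 4 and 2 and 2 of 4). Osteoblast markers had 63.8, 59.1 and 63.2 and 45.9, 43.1 and 45.5 CPM at 0 h, and 46.6, 47.9 and 41.8 and 25.8, 23.1 and 23.6 CPM at 24 h (0 and 1 of 2 and 0 and 2 of 2). All these counts stand beside the shares of all genes just given. In the myoblast-enriched fraction, the fibroblast sums were 14613, 15078 and 15855 CPM without dox and 5298 and 6287 CPM with dox, without overlap, and 0 and 4 of 7 rose and fell, beside 1.82% and 2.52% of all genes. The myotube sums there were 8724, 14283 and 12299 CPM and 8685 and 8239 CPM (0 and 1 of 16), and the osteoblast sums 96, 84.1 and 85 CPM and 48.9 and 50.1 CPM (0 and 1 of 2). In the myotube-enriched fraction no marker was called.

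Likeness of profiles was described by Pearson's r of log2(CPM + 1) group means over the 16 groups among genes averaging 5 CPM or more. The points share libraries, depth and base composition, so r is a description only. The 8 genes other than Fbxo32 had r between 0.889 and 0.996 with each other, and Fbxo32 between 0.435 and 0.757 with them. The 3 genes most like each RING ligase were Bin1 (0.985), Cryab (0.976) and Vamp5 (0.974) for Trim54 and Lmod3 (0.995), Lmod2 (0.994) and Mb (0.993) for Trim63, and those for Trim55 included Chrna1 (0.993) and Smyd1 (0.99). For the kelch genes they were Smyd1 (0.996), Cacna1s (0.995) and Myo18b (0.995) for Klhl31, Chrng (0.997), Trim72 (0.995) and Tnnc1 (0.995) for Klhl40 and Casq2 (0.997), Unc45b (0.996) and Cap2 (0.996) for Klhl41. Unc45b was most like Tnnc1 (0.997), Klhl41 (0.996) and Cap2 (0.996), and Smyd1 most like Myom1 (0.998), Gm28653 (0.998) and Klhl31 (0.996). Fbxo32 was most like Dyrk1a (0.944), Hipk3 (0.938) and Wdr26 (0.934), with lower r than the first 3 of any other gene. With Spearman's rho, 0 of the 3 genes were the same for Trim55, Trim63, Fbxo32, Klhl40 and Unc45b. For Trim54, Klhl31 and Klhl41 1 was the same, and for Smyd1 2 were. The genes named thus depended on the measure.

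The promoters of Trim54, Trim63, Klhl40 and Klhl41 are printed because they held CAGCTG, a favoured form of the E-box CANNTG that MyoD family factors bind. RefSeq entries on GRCm38.p6 matched 7 of the 9 genes, all but Trim55 and Fbxo32. Starts are those of the RefSeq entries, which for Trim54, Klhl31, Unc45b and Smyd1 differ from the gene bounds given above. For Klhl40 the RefSeq start is the gene start, while its counted transcript begins at 121777691. In the 250 bases before the start, CAGCTG lay in 4 of the 7 and in 13% of 32851 promoters, and CANNTG in 5 of the 7 and in 66.2% of them. Both motifs are palindromic, so 1 strand covers both, and each CAGCTG is also a CANNTG. Klhl31 and Smyd1 held neither motif, and Unc45b held CANNTG only. CAGCTG began 113 bases before the start in Trim54 (chr5:31116362-31116611, plus strand), 72 in Trim63 (chr4:134314870-134315119, plus strand), 10 in Klhl40 (chr9:121777357-121777606, plus strand) and 127 in Klhl41 (chr2:69669870-69670119, plus strand). A match of letters is a description of the window and shows no binding, and the capitals mark CAGCTG.
Trim54: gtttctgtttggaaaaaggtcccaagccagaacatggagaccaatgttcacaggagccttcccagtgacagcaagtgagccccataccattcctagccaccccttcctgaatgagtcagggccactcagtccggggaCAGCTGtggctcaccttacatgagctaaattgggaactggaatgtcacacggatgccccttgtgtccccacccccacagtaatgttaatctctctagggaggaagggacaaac
Trim63: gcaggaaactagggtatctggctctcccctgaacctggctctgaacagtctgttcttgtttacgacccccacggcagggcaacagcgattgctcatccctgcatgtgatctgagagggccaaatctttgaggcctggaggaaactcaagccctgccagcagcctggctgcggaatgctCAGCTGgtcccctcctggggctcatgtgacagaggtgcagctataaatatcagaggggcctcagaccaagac
Klhl40: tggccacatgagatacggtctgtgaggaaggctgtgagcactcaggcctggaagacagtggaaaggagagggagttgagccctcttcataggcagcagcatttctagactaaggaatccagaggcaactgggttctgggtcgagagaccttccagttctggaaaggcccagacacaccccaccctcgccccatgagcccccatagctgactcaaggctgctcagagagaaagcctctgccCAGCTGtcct
Klhl41: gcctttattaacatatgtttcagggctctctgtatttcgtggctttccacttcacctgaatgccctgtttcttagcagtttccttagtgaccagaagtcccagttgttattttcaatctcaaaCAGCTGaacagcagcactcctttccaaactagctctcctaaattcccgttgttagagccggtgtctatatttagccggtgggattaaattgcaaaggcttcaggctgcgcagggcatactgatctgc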

How the data were processed

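PolyA RNA from the 47 libraries was counted by the authors, who ran nf-core/rnaseq per the study's methods and Salmon on mm10 per the labels, and deposited 3 tables of estimated counts (12, 23 and 12 libraries, 109617 transcripts each) that are not scaled to depth or length. The annotation version is not given in the sources used here. Lengths, GC content and positions came from GENCODE vM21 on GRCm38, which matched 98.72% of the transcripts.

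Estimated counts were summed per gene and rounded. CPM used TMM factors over all libraries, and TPM used annotated lengths. Each comparison used the libraries of its 2 groups (4 for interactions) in edgeR 4.0.16 under R 4.3.3: filterByExpr and TMM, then a quasi-likelihood test with p adjusted by Benjamini-Hochberg over the genes tested. Where leaving out 1 library left a lone one in the myoblast-enriched dox group, it was taken to vary like the libraries of the other group. Python 3.11.15 made tables and figures, with matplotlib 3.10.9, pandas 2.3.3, scipy 1.17.1 (Wilson intervals) and numpy 2.4.6.

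The 9 genes and all lists were chosen with earlier results of these data known. Lists were the cullin-RING core, other muscle-related ubiquitin ligase genes, myosin and sarcomere chaperones, thin filament and assembly partners, atrophy and FoxO regulators, autophagy genes, proteasome subunits, deubiquitinases of muscle, and markers of myotubes, myoblasts and proliferation, fibroblasts, cardiomyocytes, smooth muscle, adipocytes and osteoblasts. Named genes are the 9, the highest and lowest called gene of each list, the 3 genes of highest Pearson r for each of the 9 (of which 1 for Trim55 is not reported), the induced genes, and the most abundant marker of each list. 

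The alternatives tried were RLE in place of TMM, DESeq2 1.42.0, keeping genes of low count, 1 fit of all groups, the replicate number as a block, each library left out in turn, a change over 2-fold, other count minimums for transcript shares, CPM on raw totals and other measures of likeness. A GC offset in 20 bins of genes, alone and with the block, was added after seeing the data. Whether replicate numbers mark pairs was checked by the correlation, over genes, of how same-numbered libraries deviated from their group means. Every pair was over 0.1 in C2C12 iCdh23 (0.101 to 0.262), C2C12 iMcam (0.309 to 0.499) and the fractions without dox (0.136 to 0.47), a pairing that comes from the data and not from a record. The CUT&RUN, ATAC-seq and imaging data were not analysed here.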

Additional observations from a re-analysis of the deposited data

Results flagged for a closer look

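The dox effect on 6 of the 9 genes differed between 48 and 120 h in whole cultures of C2C12 iMyoD1 by the edgeR test of the interaction. It was higher at 120 h in 4, beside 16.8% of all genes, and lower in 2, beside 17.2%. On the log2 scale, the effect at 120 h minus that at 48 h was -1.51 for Trim54, -0.94 for Trim63, 0.60 for Fbxo32, 0.74 for Klhl31, 1.49 for Klhl41 and 0.96 for Smyd1. Trim54 missed the threshold without 120 h dox replicate 1 (-1.30), and in the fit of all groups Fbxo32 alone passed.

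The dox effect at 48 h differed between C2C12 iMcam and C2C12 iCdh23 for 8 of the 9 genes by the same kind of test. In all 8 it was higher in C2C12 iMcam, beside 7.61% of all genes, while 3.03% of all genes had a lower effect there. The effect in C2C12 iMcam minus that in C2C12 iCdh23 was 3.94 for Trim54, 2.96 for Trim55, 4.13 for Trim63, 4.31 for Klhl31, 3.69 for Klhl40, 3.87 for Klhl41, 3.89 for Unc45b and 4.15 for Smyd1 on the log2 scale. All 8 kept their calls when any 1 library was left out, but the values of the 7 genes other than Trim63 ranged from 3.48 to 4.19, 2.48 to 3.40, 3.72 to 4.70, 3.01 to 5.29, 3.08 to 4.69, 3.14 to 4.67 and 3.07 to 4.87 in that order. Trim63 reached 4.52 and, without dox replicate 3 of C2C12 iMcam, a value 1.94 times lower in fold than with all libraries. The extremes for Klhl40 came without dox replicate 3 of C2C12 iMcam and of C2C12 iCdh23. Groups of 2 or 3 libraries are too small for an outlier test, so none was run.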

How the results depend on the processing

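In this section a count under another setting is said to move where it changed by over 1.5 times or away from 0. Smaller changes of counts are not listed. RLE normalization kept the direction and the side of the threshold of all 129 log2 fold changes of the 9 genes, and DESeq2 kept 120 of 129, with 1 that missed the threshold (Trim63 in C2C12 iMcam) and 8 that newly passed. DESeq2 called 6 of the 9 genes higher between the fractions without dox (773 genes in all) and 1 lower from 48 to 120 h, and its numbers of genes called differed by over 1.5 times for dox in the myoblast-enriched fraction (1616), dox in the myotube-enriched fraction (1), the fractions without dox (773) and the interaction of dox with fraction (2). With no low-count filter 113 of 129 log2 fold changes kept direction and side of the threshold and 13 newly passed. The number of the 9 genes called lower moved for dox in the myoblast-enriched fraction (5) and 48 to 120 h (1), the number called higher for 0 to 24 h (1) and the fractions without dox (6), and all genes called for dox in the myoblast-enriched fraction (1981), dox in the myotube-enriched fraction (1) and the fractions without dox (461). That setting also turned the sign of the time interaction of Trim55 (-0.02) and Unc45b (-0.03) and took the fraction interaction of Klhl41 to 0.

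The fit of all groups pools the spread over 47 libraries, and 18 of 129 log2 fold changes missed the threshold there while 6 newly passed. The number of the 9 genes called higher moved for dox at 0 h (0), dox at 24 h (1), the fractions without dox (5), the fractions with dox (1) and the interaction of dox with time (1), and the number lower for dox at 0 h (0), dox at 120 h (2) and the interaction of dox with time (0). All genes called moved for dox at 0 h (828), dox at 24 h (4782), dox at 48 h (4803), dox in the myotube-enriched fraction (4), the fractions without dox (1637), the fractions with dox (243), the interaction of dox with time (3088), the interaction of dox with fraction (2) and the interaction of dox with line (1026). The cause of each was not tested. A call that also requires a change over 2-fold is stricter by construction: the genes of the 9 called higher moved for dox at 0 h (1), dox at 24 h (1), dox at 120 h (0), 48 to 120 h (2) and the interaction of dox with time (1), those lower for dox at 0 h (0), dox at 120 h (2), 0 to 24 h (0) and the interaction of dox with time (1), and all genes called for dox at 0 h (578), dox at 24 h (1851), dox at 48 h (1997), dox at 120 h (2196), dox in C2C12 iCdh23 (4275), dox in C2C12 iMcam (2313), 0 to 24 h (3562), 24 to 48 h (4256), 48 to 120 h (4109), the interaction of dox with time (1925) and the interaction of dox with line (944).

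The GC offset, chosen after seeing the data, moved no count by over 1.5 times, but turned the sign of Trim54 from 0 to 24 h (0.25) and from 48 to 120 h (1.21), of Klhl40 from 48 to 120 h (0.30) and of the time interaction of Trim55 (-0.06), and took dox on Trim54 in the myotube-enriched fraction to 0.00. With the replicate block, 6 of the 9 genes were higher between the fractions without dox (676 genes called). The block with the GC offset also gave 6 (670 genes called). Apart from these and from Fbxo32 in C2C12 iCdh23, the block changed no call of the 9 genes in the 3 comparisons taken as paired from these correlations. In the other comparisons no pairing was used, because at least 1 pair was at or below 0.1 or a group lacked a replicate. Blocked there, 7 of the 9 genes fell with dox in the myoblast-enriched fraction (4051 genes called), whose 2 pairs had correlations of 0.387 and 0.515. Klhl40 was called lower from 48 to 120 h (1 of the 9), the calls for Klhl40 (-0.64) and Smyd1 (-0.25) with dox at 120 h were lost, and the fraction interaction of Klhl41 was 0.02. The cause was not tested.

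Leaving out 1 library at a time kept direction and side of the threshold in 836 refits of the 9 genes, while 20 lost a call, 9 gained a call and 42 turned sign. Smyd1 with dox at 0 h, which was not tested with all libraries, is counted apart. It passed the low-count filter in only 4 refits, through its counts with dox, and was called higher in those. Each turned value had missed the threshold with all libraries. The log2 fold changes that turned ranged as follows over the libraries left out: dox in the myoblast-enriched fraction (Klhl31 -0.34 to 0.10); dox in the myotube-enriched fraction (Trim54 -0.23 to 0.67, Trim63 -1.11 to 0.19, Klhl40 -0.44 to 0.40); 0 to 24 h (Trim54 -0.28 to 0.09); 48 to 120 h (Trim54 -0.60 to 0.29); the fractions with dox (Trim55 -0.19 to 0.99, Fbxo32 -0.05 to 0.26); the interaction of dox with time (Trim55 -0.04 to 0.10, Unc45b -0.10 to 0.23); the interaction of dox with fraction (Trim55 -1.15 to 0.01, Trim63 -0.43 to 0.89, Fbxo32 -0.13 to 0.17, Klhl31 -0.67 to 0.10, Klhl41 -1.40 to 0.37, Unc45b -0.64 to 0.48, Smyd1 -1.06 to 0.22). The counts of the 9 genes ranged from 2 to 3 higher and 0 to 1 lower for dox at 0 h, 4 to 7 lower for dox at 120 h, 0 to 2 lower for dox in the myoblast-enriched fraction, 0 to 2 lower from 48 to 120 h, 0 to 4 higher between the fractions without dox, and 4 to 5 higher and 1 to 2 lower in the time interaction. With dox they also ranged from 8 to 9 lower in C2C12 iCdh23 and from 7 to 8 lower in C2C12 iMcam. The genes called ranged from 0 to 788 for dox in the myoblast-enriched fraction, 0 to 249 between the fractions without dox and 917 to 1712 in the line interaction. CPM on raw totals moved 20 of 144 group levels by over 1 SD. Depth limits the genes near the floor, and 5 of the 9 were not tested at 0 and 24 h.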
